A study of Homo sapiens with 6 samples.

Results

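A set of 10 genes of the adherens junction and of epithelial-mesenchymal transition (EMT) was followed in HCT116 cells with PLEK2 knockdown. They were taken by symbol from a table of 17047 genes, and each of the 10 had a row. They are the cadherins CDH1, CDH3 and CDH2, the cadherin-binding catenins CTNNA1, CTNND1 and JUP, the epithelial transcription factor GRHL2, the EMT transcription factors ZEB1 and SNAI2, and the mesenchymal intermediate filament gene VIM. HCT116 is an established human colorectal carcinoma line. The control group (shNC) carried a non-targeting shRNA and the knockdown group carried an shRNA against PLEK2, which encodes a pleckstrin homology protein of the membrane and cytoskeleton, each delivered by the pLKO.1 lentiviral vector. Each group held 3 libraries of polyadenylated RNA, read as single ends of 50 bases, and no drug or other treatment is given for either group. The question was whether the junction and EMT genes differed between the groups, since the study examined migration and invasion after PLEK2 silencing.

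In an adherens junction, the extracellular part of a classical cadherin binds a cadherin on the neighbouring cell. Its cytoplasmic tail binds p120 catenin (CTNND1) near the membrane and β-catenin or plakoglobin (JUP) further along, and these link it through α-catenin (CTNNA1) to actin. During EMT, factors of the ZEB and SNAI families bind E-boxes and repress CDH1, while VIM and CDH2 are commonly gained. GRHL2 acts on the epithelial side and is known to sustain CDH1 expression.

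The study's oligonucleotide table lists 1 PLEK2 target sequence. It is shown because it defines the knockdown group. Among GENCODE 44 transcripts, a full match was found only in those of PLEK2.

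PLEK2 shRNA target: gctggtgtactacaagcttga

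PLEK2 stood at 86.0, 72.6 and 82.9 CPM, the count scaled to library size, in shNC replicates 1, 2 and 3, and at 16.02, 32.19 and 34.95 CPM in the knockdown replicates. All knockdown libraries lay below all shNC libraries. The log2 fold change was -1.54 (SE 0.24), with an adjusted p of 0.684 by edgeR's quasi-likelihood test with Benjamini-Hochberg adjustment over 12959 genes. With the replicate number as a block it was -1.57 (adjusted p = 0.00106, same test). Estimated counts summed to between 14377533 and 15602732 per library. Same-numbered libraries of the 2 groups deviated together, and replicate 1 stood apart in both groups, so the blocked value is given beside the unblocked one for each gene. Neither labels nor methods say whether replicates were separate cultures, so p-values rest on the spread between these libraries, which may be technical. The edgeR test also draws the spread of each gene toward that of other genes. The SE of a gene is therefore not set by its own libraries alone. Of the epithelial markers, EPCAM lay between 152 and 172 FPKM, which scales a count to both gene length and library size, KRT8 between 1822 and 2573, KRT18 between 1436 and 2090, KRT19 between 769 and 963 and CDX2 between 6.39 and 8.69. The remaining epithelial markers, VIL1 and CDH17, were at or below 0.08 FPKM. Of 9 markers of fibroblasts, blood and endothelium with a row, CD68 (21.2 to 31.3 FPKM) and COL1A1 (4.26 to 5.94 FPKM) were expressed, and the others did not exceed 0.13 FPKM.

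Mean levels of the 10 genes in shNC ran from the 4.26 to the 97.6 percentile of the table. JUP had the highest mean in shNC, 172 ± 28.8 FPKM (SD, n = 3), followed by CTNNA1 at 134 ± 0.94. These neighbours overlapped across the 6 libraries. CTNND1 (65.7 ± 3.2), CDH3 (51.3 ± 5.1), CDH1 (23.8 ± 2.2) and GRHL2 (7.26 ± 0.76) came next, each apart from the gene before and after it in every library. Then came a wide gap. VIM averaged 0.60 ± 0.33, SNAI2 0.29 ± 0.23 and ZEB1 0.26 ± 0.05 FPKM, with overlapping ranges. CDH2 was listed at 0.02 FPKM in shNC replicate 1, from 1 count, and at 0 in the other 5 libraries. By mean level, JUP was at the 97.6 percentile of all genes and CDH1 at the 79.0 percentile, whereas VIM was at the 28.8 percentile.

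**Figure D1:**
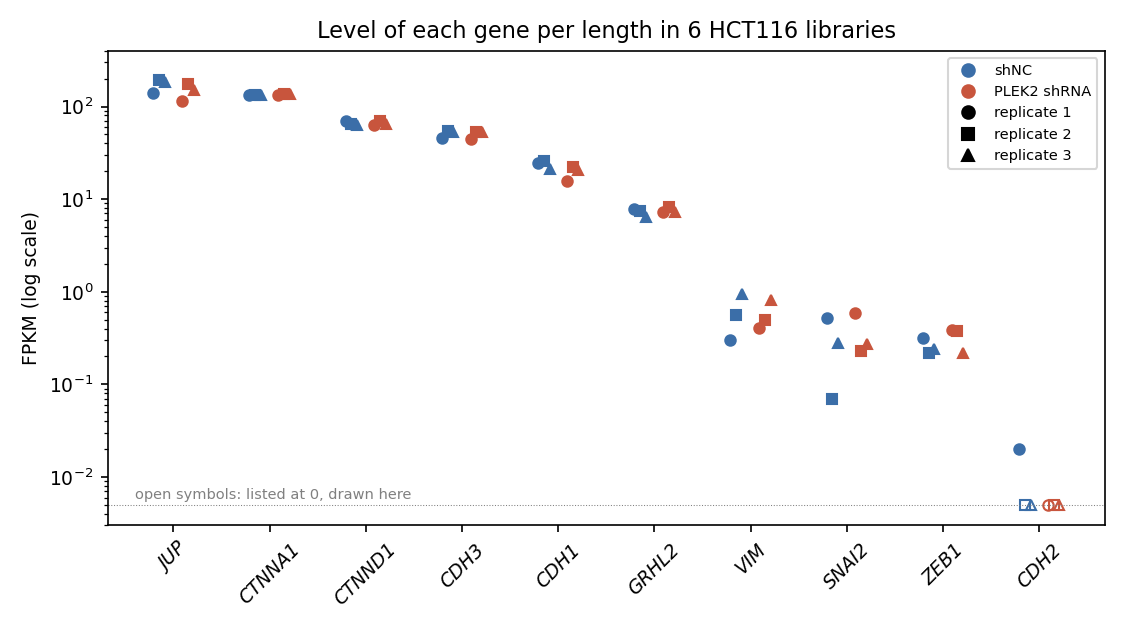
FPKM of each of the 10 genes on a log axis, with shNC in blue, PLEK2 shRNA in red and 1 symbol shape per replicate. The 3 catenins, CDH3, CDH1 and GRHL2 lie above 6 FPKM in all 6 libraries, and VIM, SNAI2, ZEB1 and CDH2 below 1 FPKM.

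CDH1 encodes E-cadherin, the main cadherin of epithelia. It was 116, 122 and 100.5 CPM in shNC replicates 1, 2 and 3, against 71.6, 105 and 94.5 CPM with PLEK2 shRNA. The groups overlapped, since knockdown replicate 2 exceeded shNC replicate 3, but CDH1 was lower in the knockdown library of every same-numbered pair. The ratio within the pair was 0.620, 0.863 and 0.940, so pair 1 carried the largest difference. Without the block the log2 fold change was -0.32 (SE 0.14, 95% interval -0.64 to 0.01, edgeR quasi-likelihood adjusted p = 0.968). With the block it was -0.33 (SE 0.09, 95% interval -0.52 to -0.13, adjusted p = 0.0965), and CDH1 was not called. DESeq2 with the block gave -0.32 with a wider SE of 0.18 (Wald test adjusted p = 0.368). In bulk RNA, fewer cells with a transcript and less of it per cell cannot be told apart. Leaving pair 1 out of the blocked edgeR fit gave -0.15 (adjusted p = 0.155), and leaving pair 2 out gave -0.38 (adjusted p = 0.302). Leaving pair 3 out gave -0.44, with an adjusted p of 0.000376, from pairs whose ratios were 0.620 and 0.863. That fit called 297 of all genes, against 110 with every pair kept. A fit with 1 pair left out keeps 2 pairs, so its SE and p rest largely on the spread of other genes.

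CDH3 (P-cadherin), the other well-expressed cadherin among the 10 genes, was 164, 198 and 192 CPM in shNC and 154, 188 and 185 CPM with PLEK2 shRNA. Its groups overlapped almost completely. The within-pair log2 ratios were -0.09, -0.07 and -0.05, and the blocked log2 fold change was -0.07 (95% interval -0.18 to 0.04, edgeR adjusted p = 0.502). In the GENCODE 44 annotation on GRCh38, CDH3 (chr16:68636189-68727468) and CDH1 (chr16:68737292-68835537) lie on the plus strand with 9823 bases between them. The build behind the counts may differ. Per length, the CDH3 to CDH1 ratio was 1.87, 2.14 and 2.51 in shNC and 2.83, 2.36 and 2.59 with PLEK2 shRNA, higher in the knockdown library of each pair. These ratios are a description, with no test. CDH2 (N-cadherin), with 1 count in shNC and 0 counts with PLEK2 shRNA, allowed no fold. A count of 0 allows up to 3 counts, which is 0.191 to 0.212 CPM in these libraries, for counting error only.

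Of the catenins, JUP alone was called with the block. Plakoglobin, its product, takes part in both adherens junctions and desmosomes, and the gene spans chr17:41754604-41786931 on the minus strand (GENCODE 44, GRCh38). JUP was 465, 640.4 and 605 CPM in shNC replicates 1, 2 and 3 (mean 570.2 ± 92.7, SD, n = 3), and 364, 569.7 and 494 CPM with PLEK2 shRNA (476 ± 104). Replicate 1 was lowest in both groups, and the groups overlapped. Within pairs, the ratio was 0.783, 0.890 and 0.816. Without the block the log2 fold change was -0.26 (SE 0.17, edgeR adjusted p = 0.968). With the block JUP fell by 17.1% (95% interval of the change -23.68% to -10.04%), a log2 fold change of -0.27 (SE 0.05, adjusted p = 0.0452). The blocked call was lost when pair 2 (adjusted p = 0.248) or pair 3 (adjusted p = 0.0556) was left out, and held without pair 1 (adjusted p = 0.00906), each by edgeR. The log2 fold changes then were -0.31, -0.25 and -0.22. Summed FPKM of the 7 epithelial markers was 5035, 5787 and 5499 in shNC and 4205, 5358 and 4886 with PLEK2 shRNA. Nearly all of this sum came from KRT8, KRT18 and KRT19, each lower in the knockdown library of every pair. The other markers did not all fall. EPCAM was 156.59 FPKM in shNC replicate 1 and 171.57 in knockdown replicate 1, and CDX2 was 7.96 and 8.69 in replicate 2. Summed FPKM of the 9 markers of other cell types was 26.0, 35.5 and 37.5 in shNC and 27.4, 33.6 and 31.7 with PLEK2 shRNA. The part of either sum in the JUP and CDH1 differences was not tested.

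**Figure D2:**
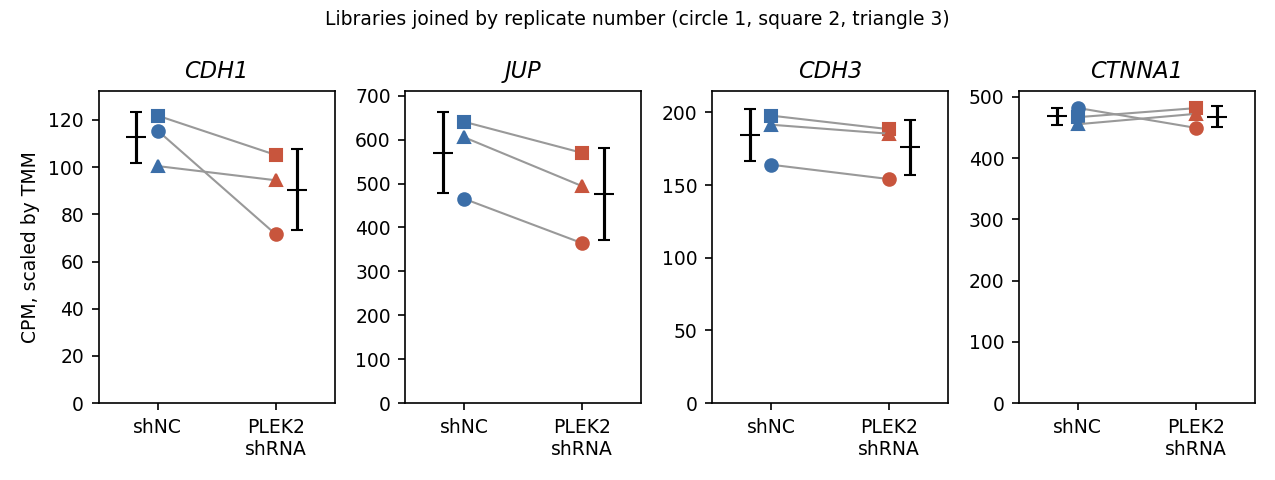
CPM of CDH1, JUP, CDH3 and CTNNA1 in each library, scaled by TMM, with lines joining libraries of the same replicate number and bars giving the mean and SD of each group (n = 3). All 3 lines slope down for CDH1, JUP and CDH3, whereas those of CTNNA1 go both ways.

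CTNNA1 (chr5:138610967-138935034, plus strand, GRCh38) was 482, 467 and 455 CPM in shNC and 449, 482 and 472 CPM with PLEK2 shRNA. It was lower in pair 1 (log2 ratio -0.10) and slightly higher in pairs 2 and 3 (0.04 and 0.05). The 95% interval of its blocked difference ran from -7.86% to 8.36%, so a change of JUP's size lay outside it. CTNND1 (chr11:57753243-57819546, plus strand, GRCh38) was 396, 375 and 355 CPM in shNC and 350.2, 394 and 364 CPM with PLEK2 shRNA, with a blocked log2 interval of -0.15 to 0.10. As for CTNNA1, its pairs went both ways (-0.18, 0.07 and 0.04), and neither gene was called (edgeR blocked adjusted p = 0.993 and 0.872). Relative to CDH1 the CTNND1 level per length was 2.84, 2.55 and 2.93 in shNC and 4.049, 3.105 and 3.198 with PLEK2 shRNA, a ratio chosen after its values were seen. For this ratio each knockdown library lay above each shNC library, while its divisor, CDH1, was lower in the knockdown library of each pair. How many ratios of other genes would separate the groups in this way was not examined. The other catenin ratios overlapped between the groups. CTNNA1 to CDH1 was 5.55, 5.18 and 6.23 in shNC and 8.44, 6.14 and 6.76 with PLEK2 shRNA, and JUP to CDH1 was 5.75, 7.52 and 8.64 against 7.28, 7.74 and 7.46. None of these ratios was tested.

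GRHL2 had 602, 541 and 471 counts in shNC and 559, 637 and 541 counts with PLEK2 shRNA. The groups overlapped, and the within-pair log2 ratios were -0.14, 0.13 and 0.13. Its blocked log2 fold change was 0.04 (95% interval -0.12 to 0.20, edgeR adjusted p = 0.819).

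The mesenchymal genes and EMT factors among the 10 had few counts and wide intervals. VIM (chr10:17228241-17237593, plus strand, GRCh38) had 8, 14 and 24 counts in shNC and 11, 13 and 21 counts with PLEK2 shRNA. Replicate 1 was lowest and replicate 3 highest in both groups. The blocked log2 fold change of VIM was -0.09 (95% interval -0.76 to 0.58, edgeR adjusted p = 0.912). ZEB1 (chr10:31318495-31529814, plus strand, GRCh38) had 30, 19 and 21 counts in shNC and 36, 34 and 20 counts with PLEK2 shRNA, and its blocked log2 fold change was 0.29 (95% interval -0.26 to 0.84, adjusted p = 0.573). The VIM interval holds changes of the size seen for JUP in both directions, and that of ZEB1 holds a rise of that size. SNAI2 (Slug) had 16, 2 and 8 counts in shNC and 18, 7 and 8 counts with PLEK2 shRNA and, like CDH2, did not pass the filter on low counts. The VIM to CDH1 ratio per length stayed between 0.0124 and 0.0444 across all 6 libraries, with overlapping groups.

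**Figure D3:**
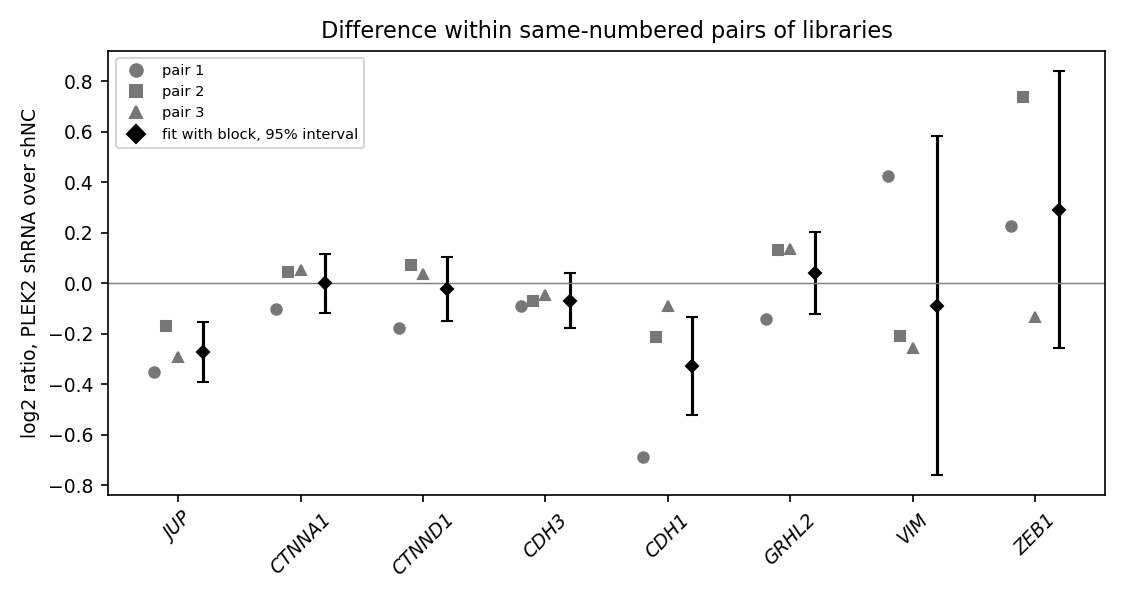
Log2 ratio of PLEK2 shRNA over shNC for the 8 genes that passed the filter, with grey symbols for the 3 same-numbered pairs and black diamonds for the edgeR fit with the replicate block and its 95% interval. Only the intervals of JUP and CDH1 lie wholly below 0, and those of VIM and ZEB1 are the widest.

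Of the 10 genes, 8 passed the filter on low counts. Without the block none of them was called, nor was any of the 12959 genes tested (0.0%). An unadjusted p under 0.05 was reached by none of the 8 and by 3.09% of all genes. With the block JUP was the only one called, against 0.849% of all genes called and 0.725% called as lower. CDH1 and JUP had an unadjusted p under 0.05 in that fit, as did 18.3% of all genes. CDH1, CDH3 and JUP were lower in all 3 pairs, a pattern of 21.1% of all genes, while none was higher in all 3, against 19.9%. None of the 8 had groups without overlap, against 9.21% of all genes. The blocked p of JUP ranked 78 of 12959 and that of CDH1 ranked 396.

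Replicate 1 differed from replicates 2 and 3 in the same direction in both groups for several of the genes. Its log2 ratio to the mean of the others was -0.42 in shNC and -0.55 with PLEK2 shRNA for JUP, and -0.25 and -0.28 for CDH3. For VIM it was -1.35 and -0.68. ZEB1 (0.48 and 0.36) and SNAI2 (1.59 and 1.21) went the other way, both on few counts. For CDH1 the ratio was 0.06 in shNC and -0.48 with PLEK2 shRNA, so its pair 1 difference came with a low knockdown library and no low control. The spread of JUP among shNC libraries, a coefficient of variation of 16.3%, compares with 1.10% from counting alone.

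Wider lists of the same pathway held no called gene, with or without the block. Among 15 tested partners of the adherens junction, 5 were lower and 2 higher in all 3 pairs, against 21.1% and 19.9% of all genes. The median blocked log2 fold change was -0.06, against -0.00178 over all genes. Of the 15, 3 had a blocked unadjusted p under 0.05, near the share of 18.3% over all genes. ACTN4, an actin crosslinker, was at -0.20 (adjusted p = 0.0982), CTNNAL1, a relative of α-catenin, at -0.23 (0.121), and NECTIN1, a nectin adhesion receptor, at 0.18 (0.129), all by edgeR with the block. CTNNB1 (β-catenin), the paralog of JUP, was 308, 273 and 276 CPM in shNC and 271, 292 and 297 CPM with PLEK2 shRNA. Its blocked interval was -0.13 to 0.14, with pair 1 lower and the other two higher.

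Since JUP also belongs to desmosomes, their genes were examined. Of 11, 9 were tested, since DSG3 and PKP1 did not pass the filter. Of these, 3 were lower and 1 higher in all 3 pairs, against 21.1% and 19.9% of all genes. The median blocked log2 fold change was -0.03. A blocked unadjusted p under 0.05 was reached by 4 of the 9, against 18.3% of all genes. PPL (periplakin), which links desmosomes to keratin, was 65.6, 69.9 and 63.5 CPM in shNC and 49.1, 61.0 and 52.4 CPM with PLEK2 shRNA. Its groups did not overlap, alone among the 9, against 9.21% of all genes. Its blocked log2 fold change of -0.30 had an edgeR adjusted p of 0.051. PKP3 (plakophilin 3) was at -0.23 (0.0695) and EVPL (envoplakin) at -0.15 (0.2). The fourth, DSC2 (desmocollin 2), named after its values were seen, went the other way at 0.13 (0.234). The abundant DSP (desmoplakin) was at -0.08 (0.54) and PERP at 0.04 (0.752).

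The epithelial program list had 20 tested genes, of which 8 were lower and 4 higher in all 3 pairs, against 21.1% and 19.9% of all genes. The median blocked log2 fold change was -0.02. Of the 20, 5 had a blocked unadjusted p under 0.05, against 18.3% of all genes. ST14 (matriptase) was at -0.21 (edgeR blocked adjusted p = 0.0759) and LSR, a tricellular junction protein, at -0.15 (0.166). EPCAM was 251, 245 and 253 CPM in shNC and 264, 239.5 and 245 CPM with PLEK2 shRNA, with a blocked interval of -0.11 to 0.11. Of 11 other EMT transcription factors, 5 were tested and none had a blocked unadjusted p under 0.05. ZEB2, TWIST2, PRRX1 and GSC had no row, and TCF4 and FOXC2 did not pass the filter. Of the 5, 2 were lower and none higher in all 3 pairs, against 21.1% and 19.9% of all genes. SNAI1, the only SNAI gene above 1 FPKM among those named, was 31.3, 33.0 and 35.9 CPM in shNC and 28.1, 34.9 and 33.0 CPM with PLEK2 shRNA. Its blocked value was -0.06 (0.684), TCF3 was at -0.11 (0.317) and TWIST1, with 3 to 12 counts a library, at -0.51 (0.54).

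Of 17 mesenchymal genes with a row, 9 passed the filter. Of these, 8 had a negative and 1 a positive log2 fold change, with a median blocked log2 fold change of -0.18. In all 3 pairs 3 were lower and none higher, against 21.1% and 19.9% of all genes. A blocked unadjusted p under 0.05 was reached by 3 of the 9, against 18.3%. AXL, a receptor tyrosine kinase, was 76.9, 58.7 and 55.9 CPM in shNC and 48.6, 46.6 and 50.4 CPM with PLEK2 shRNA. The AXL groups did not overlap, alone among the 9, against 9.21% of all genes. Its blocked log2 fold change was -0.39 (edgeR adjusted p = 0.051). TAGLN (transgelin) was at -0.25 (0.144) and COL1A1 at -0.20 (0.187). The most abundant, LGALS1 (galectin 1) and S100A4, were at -0.11 (0.335) and 0.02 (0.926).

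**Figure D4:**
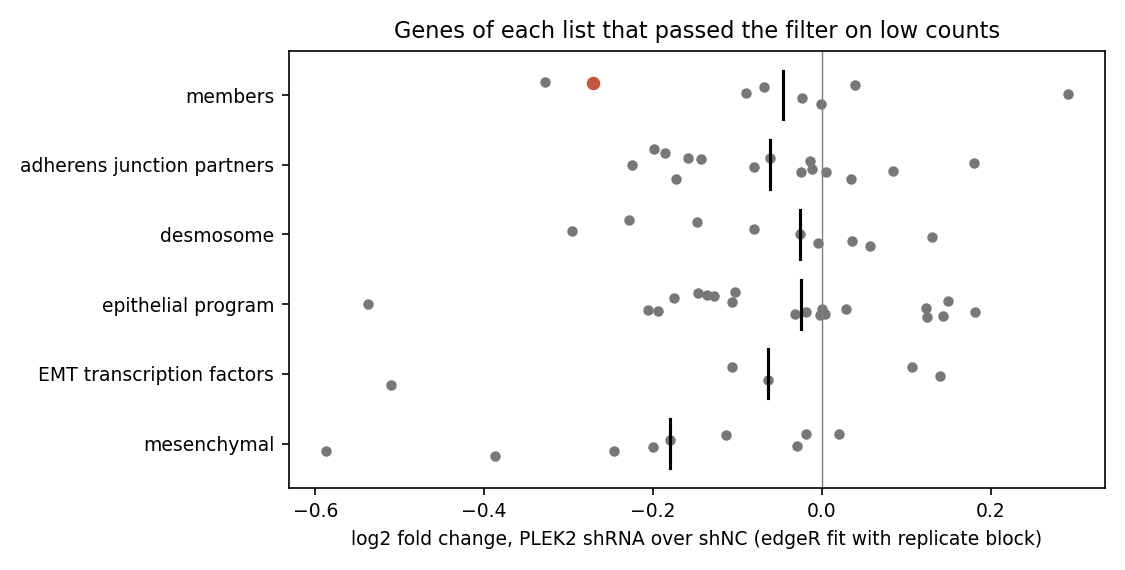
Log2 fold change of PLEK2 shRNA over shNC for each tested gene of the 10 genes (members) and of 5 wider lists, from the edgeR fit with the replicate block, with a black line at each list's median and vertical scatter only for legibility. The red point is JUP, the only gene called at an adjusted p under 0.05, and every median lies below 0.

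The genes whose centred log2 CPM was most like that of CDH1 over the 6 libraries were BCL2L1, VAMP3 and UNC13D, with root mean square differences of 0.0411, 0.0532 and 0.0649. The median over 10160 genes was 0.268. For VIM they were ID3, NRTN and APOL2 (0.177, 0.197 and 0.199, median 0.505). VIM had only 8 to 24 counts per library, so counting error enters its differences and its likeness to any gene is loosely set. By within-pair ratios other genes came first, UCP2, PRR11 and ERLIN1 for CDH1 and ARID4A, LFNG and CEP63 for VIM, and none was shared.

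RefSeq promoters (250 bases before to 50 after a start, GRCh38.p14) were matched for CTNNA1, JUP, VIM, ZEB1 and CDH2, 5 of the 10 genes. CDH1, CDH3, CTNND1, SNAI2 and GRHL2 were not matched. They were searched on both strands for the E-box CACCTG (reverse complement CAGGTG), the site of ZEB and SNAI factors, and for AACCGGTT, the core of the GRHL motif, which does not overlap the E-box letters. JUP, the gene called with the block, is shown with both of its windows, on the minus strand at chr17:41786662-41786961 and chr17:41785927-41786226. Capitals mark E-box letters. The first window held none and the second held 2, at 54 and 43 bases before its start.

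JUP upstream window: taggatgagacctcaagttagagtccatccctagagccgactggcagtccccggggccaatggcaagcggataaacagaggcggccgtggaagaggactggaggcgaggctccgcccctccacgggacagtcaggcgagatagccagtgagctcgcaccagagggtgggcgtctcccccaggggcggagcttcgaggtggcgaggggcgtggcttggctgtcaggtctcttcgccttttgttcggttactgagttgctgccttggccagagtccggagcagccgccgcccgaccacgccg

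JUP second window: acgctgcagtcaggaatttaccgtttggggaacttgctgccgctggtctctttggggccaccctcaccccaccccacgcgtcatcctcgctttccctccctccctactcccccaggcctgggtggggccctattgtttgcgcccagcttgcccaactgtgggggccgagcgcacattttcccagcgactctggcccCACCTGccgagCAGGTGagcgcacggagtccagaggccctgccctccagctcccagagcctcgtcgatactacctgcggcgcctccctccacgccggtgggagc

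Of 35116 promoters in the table, 20.6% held the E-box and 0.134% the GRHL core. These are shares of windows, not of genes or of matches. Of the 7 windows of ZEB1, that at chr10:31318167-31318466 held 1 E-box match and that at chr10:31318966-31319265 held 3. The others held none. CTNNA1, VIM and CDH2 had none, and no window of the 5 genes held the GRHL core. A match describes letters in the window and does not show binding.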

How the data were processed

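Polyadenylated RNA of HCT116 cells was sequenced in 3 shNC and 3 PLEK2 shRNA libraries, grouped by the treatment labels and numbered as in their titles. The table holds the authors' estimated counts, some with decimals, and length-scaled values without a stated unit. The deposited length-scaled values were read as FPKM, because over 1522 genes the ratio of count to value followed the library totals. The submitters' processing notes name HISAT2 2.0.4, Bowtie2 2.2.5, RSEM 1.2.12 and DESeq2 1.4.5, and a mouse build, GRCm38.p6, although the gene identifiers are human. Which genome was used was therefore not settled. Group means deposited beside the libraries were not used.

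Counts were rounded, filtered (filterByExpr defaults, 12959 of 17047 genes) and scaled by TMM (factors 0.984 to 1.02). The test was edgeR 4.0.16's quasi-likelihood test (R 4.3.3), with Benjamini-Hochberg adjustment over all genes tested and calls at an adjusted p under 0.05. Intervals are at 95% and cover the modelled spread. Every count of the 10 genes was whole in all 6 libraries. The scripts were tested on simulated data.

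The main fit had no block. Each library's deviation from its group mean was correlated across groups over 10161 genes, giving 0.736, 0.558 and 0.554 for equal numbers. Unequal numbers gave 0.358 and 0.355 between replicates 2 and 3, and -0.629 to -0.551 where replicate 1 was 1 of the libraries. The numbers were therefore taken to pair the libraries, from these values and not from a stated batch. Pairing 2 with 2 and 3 with 3 rests on a smaller difference than pairing 1 with 1. Alternatives were DESeq2 1.42.0 and its size factors, library totals, no filter, limma 3.58.1 on log2(FPKM + 1), the block, and leaving out libraries or pairs.

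The members, lists and tests were chosen with earlier results of these data known. In each list, genes called with or without the block were to be named, then those with the smallest blocked p until 3 were named, and the 2 with the highest FPKM. A gene that this rule names is not reported here. Genes most like CDH1 and VIM were the 3 with the smallest root mean square difference among genes with a mean log2 CPM over 3. Protein comparisons were not analysed here. Python 3.11.15, numpy 2.4.6, pandas 2.3.3 and matplotlib 3.10.9 were also used.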

Additional observations from a re-analysis of the deposited data

How the results depend on the processing

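The number of calls depended on the replicate block and, within it, on which pairs were kept. Of all genes, 0 were called in the main fit (400 at an unadjusted p under 0.05), 12 by DESeq2, 110 with the block and 192 with the block and library totals. With the block, 528, 18 and 297 were called when pair 1, 2 or 3 was left out. The block in DESeq2 gave 64 calls. That fit gave no adjusted p to some genes, among them VIM, ZEB1, GRHL2, PPL and AXL, which could not be called there. Its calls are therefore not over the same genes as those of edgeR. Leaving out single libraries without the block gave 0 to 1, the 1 coming without PLEK2 shRNA replicate 1. Of the 8 tested members, 1 was called with the block under TMM, library totals or DESeq2 and without pair 1 (JUP each time), and 1 without pair 3 (CDH1). Without pair 2 none was. Of the list genes, 1 was called with the block and library totals (AXL), 3 with the block without pair 1 (PPL, PKP3 and ST14) and 4 without pair 3, among them PPL and AXL. PLEK2 was called by DESeq2 (-1.53), with the block (-1.57), with the block and library totals (-1.54) and with the block without pair 1, 2 or 3 (-1.21, -1.78 and -1.74). DESeq2 with the block gave it no adjusted p. Without single libraries and without the block its log2 fold change ran from -1.74 to -1.26, and it was called without PLEK2 shRNA replicate 1 (edgeR adjusted p = 0.0106). JUP and CDH1 kept a negative log2 fold change under every alternative run. No other call of a member changed with the block.

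Signs turned for uncalled values. CTNNA1 became positive with DESeq2's size factors (0.00704), library totals (0.0303), all genes with a count (0.00819), DESeq2 (0.0088), limma (0.0236), the block with library totals (0.0301), the block in DESeq2 (0.00883) and the block without pair 1 (0.0543). CTNND1 did so with library totals (0.00805), limma (0.00838), the block with library totals (0.00781) and the block without pair 1 (0.0594). With the block, leaving out pair 1 gave 0.0148 for DSP and -0.0326 for EPCAM, leaving out pair 2 gave -0.0278 for CTNNB1 and -0.0758 for S100A4, and leaving out pair 3 gave 0.065 for VIM and -0.0352 for CTNNB1. Without single libraries, log2 fold changes ran from -0.134 to 0.0196 for CDH3, -0.0219 to 0.033 for CTNNA1, -0.0715 to 0.0296 for CTNND1, -0.433 to 0.393 for VIM, -0.0397 to 0.104 for GRHL2, -0.021 to 0.0752 for CTNNB1, -0.0659 to 0.152 for PERP, -0.247 to 0.00663 for LSR, -0.0417 to 0.0305 for EPCAM, -0.169 to 0.0175 for TCF3, -0.128 to 0.0244 for SNAI1, -0.472 to 0.000688 for TAGLN, -0.223 to 0.0153 for LGALS1 and -0.0872 to 0.206 for S100A4. The cause was not tested. VIM, ZEB1, SNAI2 and CDH2 had 36 counts or fewer per library. The coefficient of variation in shNC was 54.2% for VIM against 27.5% from counting alone, 77.9% against 43.7% for SNAI2, and 20.6% against 21.0% for ZEB1.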
